A study of Mus musculus with 2 samples.

Results

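The Wnt ligands, their receptors and the secreted proteins that modulate them were described in mouse colon from RNA-seq of polyadenylated RNA. The 44 genes were the protein-coding genes named Wnt, Fzd, Rspo, Sfrp or Dkk with a family number, together with Lrp5, Lrp6 and Wif1. They were taken by symbol alone, with no measured value, from 43346 Ensembl genes, of which 21474 were protein-coding. There was 1 group of 2 libraries, numbered as biological replicates 1 and 2, and no treated or control group. Both were colon of the C57BL/6J strain at an adult age of 8 weeks, labelled as pools of male and female littermates of unknown health state, with 1 donor record for both. The labels do not tie the libraries to separate animals, so differences here are between these samples only and may be partly technical. The p-values of the exact binomial test cover counting error alone and do not measure the spread between samples.

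Wnt proteins are lipid-modified ligands that bind a Frizzled (Fzd) receptor together with the co-receptor Lrp5 or Lrp6, which stops the breakdown of beta-catenin and lets it switch on target genes with TCF/LEF factors. In the gut this signal maintains the stem cells at the base of the crypts, and much of the ligand comes from stromal cells under the epithelium as well as from epithelial cells. R-spondins (Rspo) amplify the signal by protecting Frizzled from removal, whereas Sfrp proteins and Wif1 bind the ligands and several Dkk proteins block the co-receptors.

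The libraries held 46271167 and 45499561 expected counts over Ensembl genes, that is, read counts estimated per gene. They differed in several ways that the group label does not give. Xist, which is expressed from the inactive X chromosome of females, had 8721 counts in replicate 1 and 12 in replicate 2, and 4 Y-linked genes together had 0 and 1382, although both pools are labelled as mixed in sex. By these counts the libraries did not come from the same pool of animals. Markers of pancreatic acinar cells summed to 452 TPM (a level corrected for transcript length and scaled to a fixed library total) in replicate 1 and 35127 in replicate 2, with 11 of 11 called higher in replicate 2. Haemoglobin genes summed to 525 and 2998 TPM, with 5 of 5 called higher in replicate 2, and adipocyte markers to 249 and 516, with 2 of 6. Leaving the acinar markers out of the total would add 0.0452% to every other TPM in replicate 1 and 3.64% in replicate 2. The labelled tissue was borne out by 10 epithelial markers at 14836 and 14581 TPM and 10 smooth muscle markers at 7057 and 6967, and 16 stromal markers summed to 1027 and 1158. None of the markers of those lists was called different between the libraries, where 6.35% of all genes tested were. No marker of enteric neurons, glia, interstitial cells of Cajal, endothelium or macrophages was called either. The 5 mesothelial markers summed to 26.5 and 16.7 TPM, all of them higher in replicate 1 (median log2 ratio 0.61), and 1, Krt5, was called.

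Of the 44 genes, 25 were detected, defined as at least 1 TPM in both libraries. That share, 56.8%, was close to the 57.9% of all protein-coding genes that passed the same level. A further 18 were under 1 TPM in both libraries, and Wnt2 lay at the limit with 0.73 and 1.00 TPM. Wnt3a, Wnt8a, Rspo4, Dkk1 and Dkk4 had 0 counts in both libraries, which allows up to 3 counts in each. The median level of the detected members was 10.6 TPM, against 14.6 over the detected protein-coding genes. In whole tissue, fewer cells of a type and less RNA per cell cannot be told apart.

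**Figure D1:**
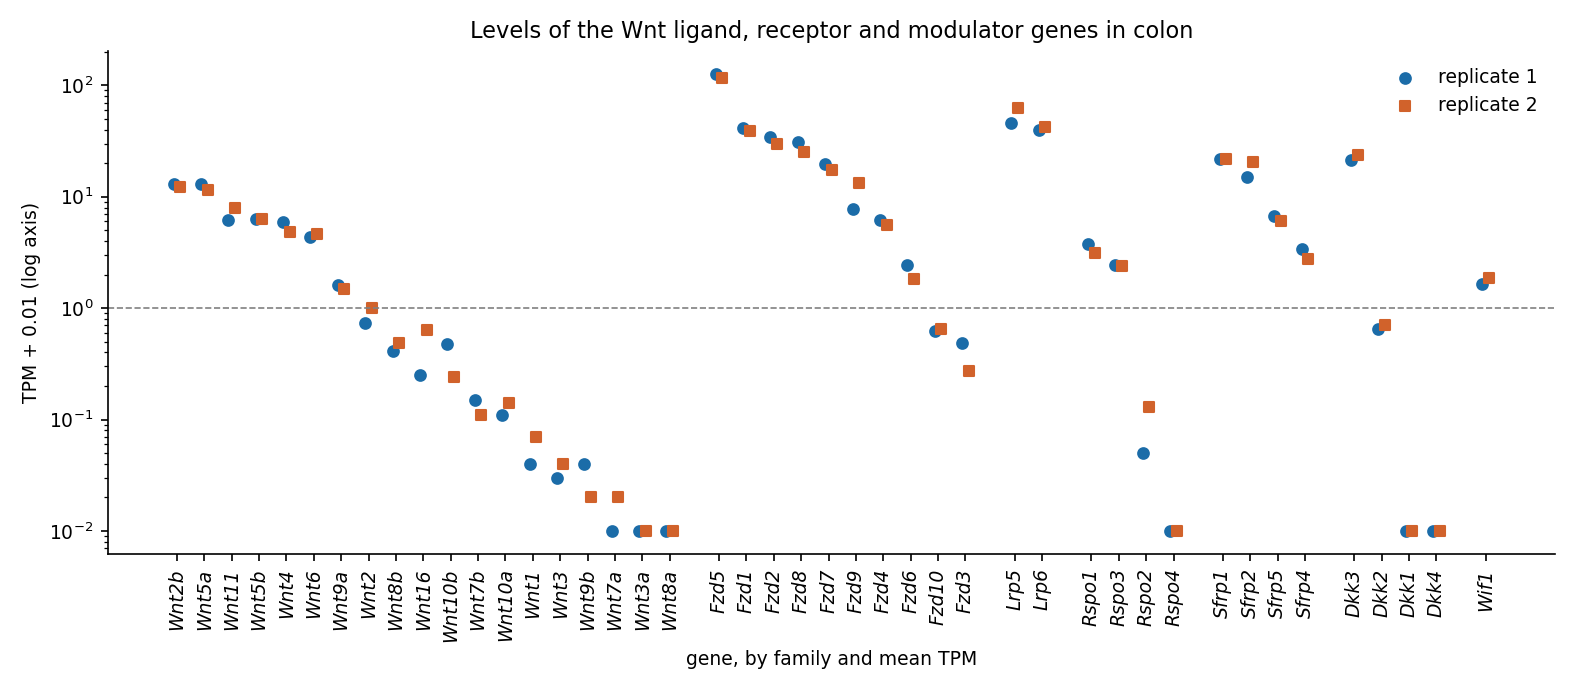
Level of each of the 44 genes in replicate 1 (circles) and replicate 2 (squares), as TPM + 0.01 on a log axis, ordered by mean within each family; the dashed line marks 1 TPM, the level for detection. Fzd5 stands highest at 127 and 115 TPM, and every family with more than 2 members except Sfrp has members on both sides of the line.

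Frizzled receptors made up the largest share of the members' RNA. Their 10 genes summed to 259.9 ± 16.2 TPM (SD, n = 2), which was 55.9% of the members' TPM in replicate 1 and 51.0% in replicate 2. The 2 co-receptors summed to 94.8 ± 13.4 TPM, the 19 Wnt ligands to 51.9 ± 0.707, the 4 Sfrp genes to 48.9 ± 3.11, the 4 Dkk genes to 23.1 ± 1.87 and the 4 R-spondins to 5.93 ± 0.445 (SD, n = 2). Over all annotated transcripts Frizzled RNA was therefore 5.17 and 4.83 times the ligand RNA in the respective libraries. RNA of the secreted antagonists (Sfrp, Dkk and Wif1) was 1.338 and 1.505 times the ligand RNA, at 70.15 and 77.4 TPM. Dkk3, for which inhibition of Wnt signalling is less settled, supplied 21.1 and 23.7 TPM of this. Without Dkk3 the antagonist sum over all annotated transcripts was below the ligand sum in replicate 1 and slightly above it in replicate 2. The ranges of the ligand and Sfrp sums, 51.4 to 52.4 and 46.7 to 51.1 TPM, did not overlap but lay close together. On protein-coding transcripts alone the ligands had 38.67 and 38.29 TPM and the Sfrp genes 38.69 and 38.45, so these ranges overlapped. With Dkk2 and Wif1 added, the antagonist sum without Dkk3 was there above the ligand sum in both libraries. Frizzled kept its level there, so its excess over the ligands was larger.

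**Figure D2:**
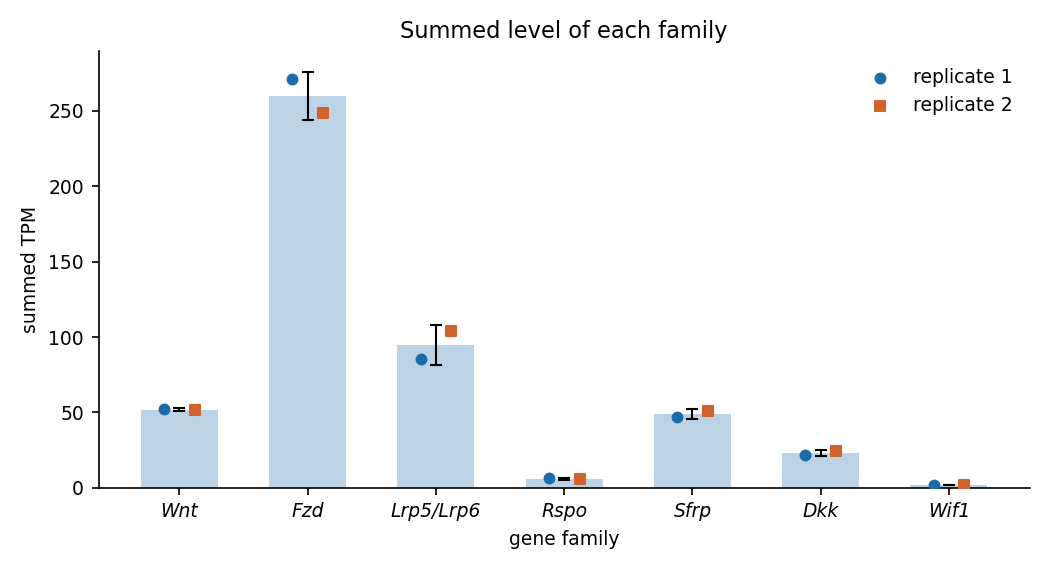
Summed TPM of each gene family; bars show the mean of 2 libraries, error bars the SD, and circles and squares replicates 1 and 2. The Frizzled sum (271 and 249 TPM) exceeds every other family in both libraries, and the co-receptor sum (85.3 and 104) follows it.

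Among the ligands, 7 of 19 were detected. Wnt2b, a ligand of the beta-catenin branch (chr3:104945272-104961921), had 13.1 TPM in replicate 1 and 12.1 in replicate 2. Wnt5a, best known for signalling without beta-catenin (chr14:28504750-28527448), had 12.9 and 11.5 TPM. Over all annotated transcripts the ranges of these 2 ligands overlapped, so neither can be ranked above the other. On protein-coding transcripts alone Wnt2b was unchanged, with its 1 transcript, whereas Wnt5a had 4.81 and 3.49 TPM and lay below it in both libraries. Wnt11, another ligand of the beta-catenin-independent kind, had 6.13 and 7.90 TPM. Its close neighbour in level, Wnt5b, a paralog of Wnt5a, had 6.25 and 6.32 TPM. These ranges overlapped too, and over all transcripts both lay below the values of Wnt5a and Wnt2b. On protein-coding transcripts Wnt5b kept its level and lay above Wnt5a, and above Wnt11 at 3.48 and 5.21 TPM. Most of that Wnt11 level lay on Wnt11-203, of 634 nt, with 2.24 and 3.89 TPM on 34.8 and 61.0 counts. The longest Wnt11 transcript, Wnt11-201 (3451 nt), had 0 and 7.65 counts.

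Wnt4, a ligand that acts in epithelial and urogenital development, followed with 5.92 and 4.81 TPM. Wnt6 had 4.35 and 4.66 TPM, of which 1.79 and 2.77 lay on its coding transcript, and Wnt9a had 1.60 and 1.49. Over all transcripts the library ranges of Wnt5b, Wnt4, Wnt6 and Wnt9a were separate from one another. However, the authors' credibility intervals, whose level the headers do not state, overlapped in at least 1 library between Wnt5b and Wnt4 and between Wnt4 and Wnt6. Wnt2b alone supplied 25.0% of the ligand TPM in replicate 1 and 23.5% in replicate 2.

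The other 12 ligands were each at or under 1 TPM. Wnt2, Wnt8b, Wnt16 and Wnt10b had means of 0.35 to 0.865 TPM, on 13 to 63 counts per library. Wnt7b and Wnt10a rested on 8 to 16 counts per library. Wnt1, Wnt3, Wnt9b and Wnt7a had between 0 and 5 counts, and Wnt3a and Wnt8a had none. Wnt3, at 0.02 and 0.03 TPM, is known in the gut as a ligand made by Paneth cells, an epithelial cell type of the small intestine. The levels of Wnt16 and Wnt7a are poorly bounded. Wnt16, at 0.24 and 0.62 TPM, had upper credibility limits of 4.48 and 3.47 TPM and posterior means of 1.70 and 1.58. Wnt7a, at 0 and 0.01 TPM, had upper limits of 2.49 and 2.09 TPM and posterior means of 1.03 and 0.87.

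Wnt5b and Wnt11 each had transcripts from more than 1 start site with a RefSeq promoter record, and the reads were divided among the sites differently in the 2 genes. The 250 bases before each start are printed for that reason, on the gene's own strand, from RefSeq records on GRCm38.p6; capitals mark CpG dinucleotides, the sites of DNA methylation in mammals, which was not measured here. The Wnt5b windows are on the minus strand, at chr6:119544348-119544597 (distal), chr6:119467212-119467461 (middle) and chr6:119449387-119449636 (proximal).
Wnt5b distal: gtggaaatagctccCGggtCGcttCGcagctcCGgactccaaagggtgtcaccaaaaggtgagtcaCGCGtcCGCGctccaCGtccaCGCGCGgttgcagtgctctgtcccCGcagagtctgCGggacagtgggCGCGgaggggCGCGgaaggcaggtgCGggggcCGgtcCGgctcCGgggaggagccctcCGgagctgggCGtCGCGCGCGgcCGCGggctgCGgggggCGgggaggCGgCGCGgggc
Wnt5b middle: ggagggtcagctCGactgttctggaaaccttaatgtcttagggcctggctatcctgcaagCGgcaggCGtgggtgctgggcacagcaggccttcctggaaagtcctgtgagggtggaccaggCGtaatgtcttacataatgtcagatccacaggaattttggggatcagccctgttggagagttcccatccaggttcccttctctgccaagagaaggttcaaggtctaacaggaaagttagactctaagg
Wnt5b proximal: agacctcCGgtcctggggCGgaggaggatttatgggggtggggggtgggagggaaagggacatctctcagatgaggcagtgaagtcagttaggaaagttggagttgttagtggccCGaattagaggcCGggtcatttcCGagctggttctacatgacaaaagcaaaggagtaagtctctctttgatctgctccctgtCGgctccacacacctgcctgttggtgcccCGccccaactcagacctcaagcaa
The distal start of Wnt5b, at position 119544347, took 97.8% of the gene's TPM in replicate 1 and 97.9% in replicate 2, on 483 and 484 expected counts. The middle start took 1.60% and 0%, and the proximal one 0.64% and 2.06%, on 3.02 and 9.48 counts. Nearly all Wnt5b RNA was thus assigned to the distal start in both libraries. The distal window held 35 CpG, against 4 and 7 in the middle and proximal windows.

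The Wnt11 windows are on the plus strand, at chr7:98834862-98835111 (distal) and chr7:98838595-98838844 (proximal).
Wnt11 distal: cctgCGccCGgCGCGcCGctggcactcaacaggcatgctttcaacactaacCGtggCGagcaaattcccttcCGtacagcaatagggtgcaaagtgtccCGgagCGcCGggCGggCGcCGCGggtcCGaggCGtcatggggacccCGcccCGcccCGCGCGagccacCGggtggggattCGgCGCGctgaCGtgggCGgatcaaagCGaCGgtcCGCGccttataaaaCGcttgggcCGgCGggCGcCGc
Wnt11 proximal: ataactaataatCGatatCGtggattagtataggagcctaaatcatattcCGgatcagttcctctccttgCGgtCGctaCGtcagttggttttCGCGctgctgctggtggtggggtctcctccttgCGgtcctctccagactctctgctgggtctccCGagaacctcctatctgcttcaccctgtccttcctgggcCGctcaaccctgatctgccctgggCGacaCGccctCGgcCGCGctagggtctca
Wnt11 divided its signal between the starts. The proximal start, at position 98838845, took 63.4% of its TPM in replicate 1 and 47.2% in replicate 2, with 186 and 179 expected counts. Its transcripts were Wnt11-205, which is protein-coding, and Wnt11-204, annotated as a target of nonsense-mediated decay. Wnt11-204 held 51.8% and 41.1% of the gene's counts. The distal start, at 98835112, took 36.6% and 52.8%, with 34.8 and 81.1 counts. By counts the proximal start led in both libraries (84.3% and 68.8%), whereas by TPM the order of the starts turned between them. Here the window with more CpG, 37 against 16, was not the one with more reads.

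The Frizzled receptors were led by Fzd5, which acts in the intestinal epithelium and is needed for Paneth cell maturation in the small intestine. It had 127 TPM (14586 counts) in replicate 1 and 115 TPM (13366 counts) in replicate 2, or 121 ± 8.51 (SD, n = 2). That mean exceeded 94.4% of protein-coding genes and was more than that of any other member. Fzd5 (chr1:64730558-64737751, minus strand) alone supplied 46.9% and 46.4% of Frizzled TPM. The 250 bases before its RefSeq start, at chr1:64737751-64738000 on GRCm38.p6, are shown because it is the most abundant member, with CpG again in capitals. They held 32 CpG.
Fzd5: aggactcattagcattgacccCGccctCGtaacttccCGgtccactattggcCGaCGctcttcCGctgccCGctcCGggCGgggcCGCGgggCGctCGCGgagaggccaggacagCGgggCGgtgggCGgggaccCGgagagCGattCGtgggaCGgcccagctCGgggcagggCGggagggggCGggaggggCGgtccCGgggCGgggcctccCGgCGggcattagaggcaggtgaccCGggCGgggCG

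Fzd1 (chr5:4753839-4758035) followed with 41.1 and 39.1 TPM. Fzd2 had 34.6 and 29.9 TPM, and Fzd8, the closest paralog of Fzd5, had 31.2 and 25.3. The Fzd2 and Fzd8 ranges overlapped. Fzd7, a receptor described on intestinal stem cells, had 19.6 and 17.3 TPM. Fzd9 had 7.75 and 13.4 TPM and was the only one of the 8 detected Frizzled genes that was higher in replicate 2. Fzd4, which also serves as the receptor for Norrin, had 6.15 and 5.61 TPM, and Fzd6 had 2.45 and 1.80. Fzd10 (0.61 and 0.64 TPM) and Fzd3 (0.48 and 0.26) were under 1 TPM.

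Grouped by sequence relatedness, Fzd5 and Fzd8 supplied 58.4% of Frizzled TPM in replicate 1 and 56.6% in replicate 2. Fzd1, Fzd2 and Fzd7 supplied 35.1% and 34.7%. Fzd4, Fzd9 and Fzd10 supplied 5.35% and 7.91%, and Fzd3 with Fzd6 1.08% and 0.829%. The order of the 4 groups was the same in both libraries. Norrin itself (Ndp) had 2 counts in each library, so the Norrin receptor Fzd4 was present with hardly any RNA of that ligand.

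Both co-receptors were well expressed. Lrp5 (chr19:3584828-3686564) had 45.96 TPM on 6454 counts in replicate 1 and 62.0 TPM on 8579 counts in replicate 2. Lrp6 (chr6:134446476-134566965) had 39.3 and 42.2 TPM. Over all annotated transcripts the ranges did not overlap, and Lrp5 was the higher in both libraries. Over the same transcripts Frizzled RNA exceeded that of the co-receptors 3.18 times in replicate 1 and 2.38 times in replicate 2. On protein-coding transcripts alone the co-receptors came to 53.0 and 63.1 TPM and Frizzled kept its level, so the excess was larger.

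R-spondins were the least abundant of the families with several members. Rspo1 had 3.76 and 3.09 TPM, on 223 and 182 counts. Rspo3, described in stromal cells near the crypt base, had 2.44 and 2.40 TPM, on 195 and 190 counts. Their library ranges were separate, and their credibility intervals overlapped in replicate 2 but not in replicate 1. Rspo2 rested on 5 and 13 counts, and Rspo4 on none.

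All 4 Sfrp genes were detected. Sfrp1 had 21.7 TPM in each library, and Sfrp2 had 15.0 and 20.6. Sfrp5 had 6.68 and 6.02 TPM, and Sfrp4 had 3.38 and 2.76. Sfrp1 was higher than Sfrp2 in both libraries, with credibility intervals that overlapped in at least 1. The related antagonist Frzb, also called Sfrp3 and left out by the naming rule, had 5.02 and 5.53 TPM, between Sfrp5 and Sfrp4.

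Dkk RNA was almost entirely Dkk3, with 21.1 and 23.7 TPM or 97.1% of the family in each library. Dkk3 is a divergent family member for which inhibition of Wnt signalling is less settled than for Dkk1. Dkk1 and Dkk4, which block the co-receptors, had 0 counts. Dkk2 had 81 and 88 counts, or 0.64 and 0.70 TPM. Wif1, which binds Wnt ligands directly, had 1.64 and 1.84 TPM. Of the Sfrp, Dkk and Wif1 genes, Dkk3, Sfrp1 and Sfrp2 thus had the highest levels over all transcripts, with means of 17.8 to 22.4 TPM. On its protein-coding transcript Sfrp2 had 6.90 and 7.94 TPM, nearer to Sfrp5.

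The members were next compared between the libraries. No member differed by the rule of an adjusted p of at most 0.05 (exact binomial test, Benjamini-Hochberg over all genes tested) and at least a 2-fold ratio. Of the 44, 35 had a summed count of at least 10 and were tested, and 0 were called, against 6.35% of 17713 genes (2.55% with the higher value in replicate 1 and 3.81% in replicate 2). At an unadjusted p of at most 0.05 the exact binomial test gave 16 members (54.3% of all genes). The exact test of edgeR, which includes an estimated spread, called 0 members (1.35% of all genes). It gave 0 at its unadjusted p of at most 0.05 (4.23% of all genes). That spread was estimated from these same 2 libraries and so takes in the differences under test. This leaves edgeR little power for ratios under 2-fold, and its 0 adds no separate support. The binomial test covers counting error only, and both tests compare 2 libraries, not conditions. The log2 ratio of replicate 1 over replicate 2 had a median of 0.02 over the 35 members and -0.00 over all genes, and the median absolute log2 ratio was 0.26 against 0.23. Within 2-fold were 33 of the 35 members, where 91.2% of all genes were.

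Smaller differences passed the adjusted p alone. This was so for 13 members (37.1%), 8 higher in replicate 1 and 5 higher in replicate 2, against 49.4% of all genes. Fzd9, on 590 and 1011 counts, had the widest ratio of the detected members, with a log2 ratio of -0.81 (95% interval -0.96 to -0.66, adjusted p = 6.36e-27, exact binomial test; edgeR adjusted p = 1). Lrp5 had a log2 ratio of -0.44 (95% interval -0.49 to -0.39, adjusted p = 5.01e-76, exact binomial test; edgeR adjusted p = 1). Both were thus higher in replicate 2, the library with more acinar, haemoglobin and adipocyte RNA. The part of those cells in the differences was not tested. Apparent sex also separated the libraries, with 8721 and 12 Xist counts and 0 and 1382 Y-linked counts, and its part was not tested either. In the other direction, Fzd6 had a log2 ratio of 0.43 (adjusted p = 0.00112, exact binomial test) and Fzd3, on 69 and 37 counts, one of 0.86 (adjusted p = 0.00842, exact binomial test).

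Fzd5, Fzd2, Fzd8, Fzd7, Wnt5a and Wnt4 were also higher in replicate 1 at that adjusted p, with log2 ratios of 0.10 to 0.29. Sfrp2, Dkk3 and Wnt6 were higher in replicate 2, with log2 ratios of -0.36 to -0.18. By contrast, Wnt5b had 493 counts in each library, and Sfrp1, Rspo3 and Lrp6 had log2 ratios between -0.01 and 0.02. The members outside the 2-fold band were Wnt16 (13 and 27 counts, log2 ratio -1.06, adjusted p = 0.0527, exact binomial test) and Rspo2 (5 and 13 counts, log2 ratio -1.33, adjusted p = 0.109, exact binomial test). Both rested on few reads and missed the adjusted p.

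**Figure D3:**
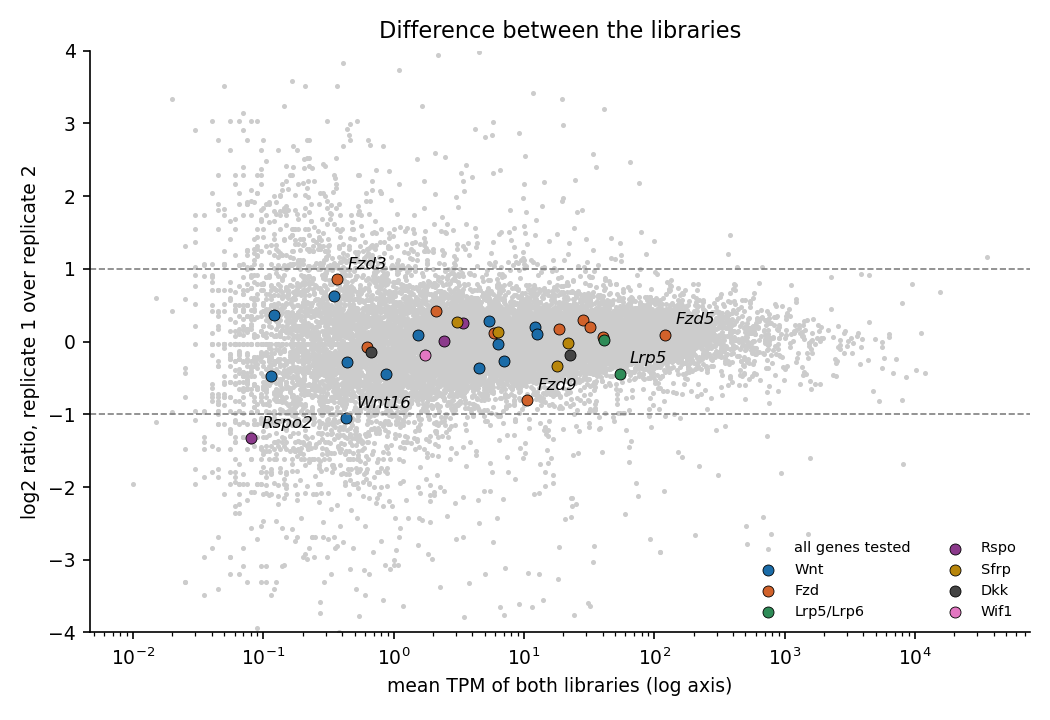
Log2 ratio of scaled counts, replicate 1 over replicate 2, against the mean TPM of both libraries on a log axis; grey points are all genes tested (184 lie beyond the plotted range of 4 either way) and coloured points the 35 members tested. The dashed lines mark a 2-fold ratio, and of the members only Wnt16 and Rspo2, both under 1 TPM, fall outside it.

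Gene levels add up all annotated transcripts, including those with no full reading frame, and this mattered for several members. One transcript was annotated for 25 members and 2 or more for 19. Of the 18 among these with counts in both libraries, 12 had the same leading transcript by TPM in both. Counting by reads in place of TPM raised this to 16.

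In Lrp5 the transcript Lrp5-203, annotated as a target of nonsense-mediated decay, took 49.96% of the TPM in replicate 1 and 49.5% in replicate 2. Non-coding classes together took 51.7% and 51.0% of Lrp5 TPM, but 38.0% and 37.5% of its counts. Protein-coding transcripts of Lrp5 thus came to 22.2 and 30.4 TPM, below the 30.8 and 32.7 TPM of Lrp6, so the order of the co-receptors turned when only these were summed. That turn rested on Lrp6-203, a coding transcript of 722 nt with 14.5 and 17.3 TPM on only 271 and 325 counts. Between the long coding transcripts, Lrp5-201 (21.97 and 29.6 TPM) stayed above Lrp6-201 (16.3 and 15.5 TPM). In Lrp6 a retained intron transcript, Lrp6-202, took 21.7% and 22.5% of TPM. Lrp6-201 led in replicate 1 with 41.5%, and Lrp6-203 led in replicate 2 with 40.8%.

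Sfrp2 had 53.8% and 61.5% of its TPM on the short processed transcript Sfrp2-202 (600 nt), but only 20.2% and 26.2% of its counts. Wnt5a had 62.8% and 69.6% of its TPM on transcripts without a coding annotation, led by Wnt5a-203, and 25.9% and 36.4% of its counts. In Wnt6 the retained intron transcript Wnt6-202 held 58.9% of TPM in replicate 1 and 40.4% in replicate 2. Since TPM is corrected for length, a short transcript carries a larger share of TPM than of reads, and the levels of these 3 genes depend on how reads were assigned among transcripts. Summed over protein-coding transcripts alone, the Wnt family kept 73.8% and 74.5% of its TPM, Lrp5 with Lrp6 62.2% and 60.5%, and the Sfrp family 82.8% and 75.2%.

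By the assigned reads, Fzd6 changed its leading transcript between the libraries. Fzd6-202 took 80.8% of TPM in replicate 1 and 21.1% in replicate 2, with Fzd6-201 taking the rest. These transcripts are 4077 and 4081 nt long, and both are protein-coding. Their genomic starts lie at positions 39006034 and 39006333 of chromosome 15, and their ends at 39038188 and 39038186. The split thus depends on how 346 and 252 counts were assigned between 2 similar transcripts. Whether the transcripts truly differ between the libraries was not tested. Fzd5 was steadier, with Fzd5-202 at 88.9% and 87.0%, and so was Wnt5b, with Wnt5b-204 at 97.8% and 91.0%.

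**Figure D4:**
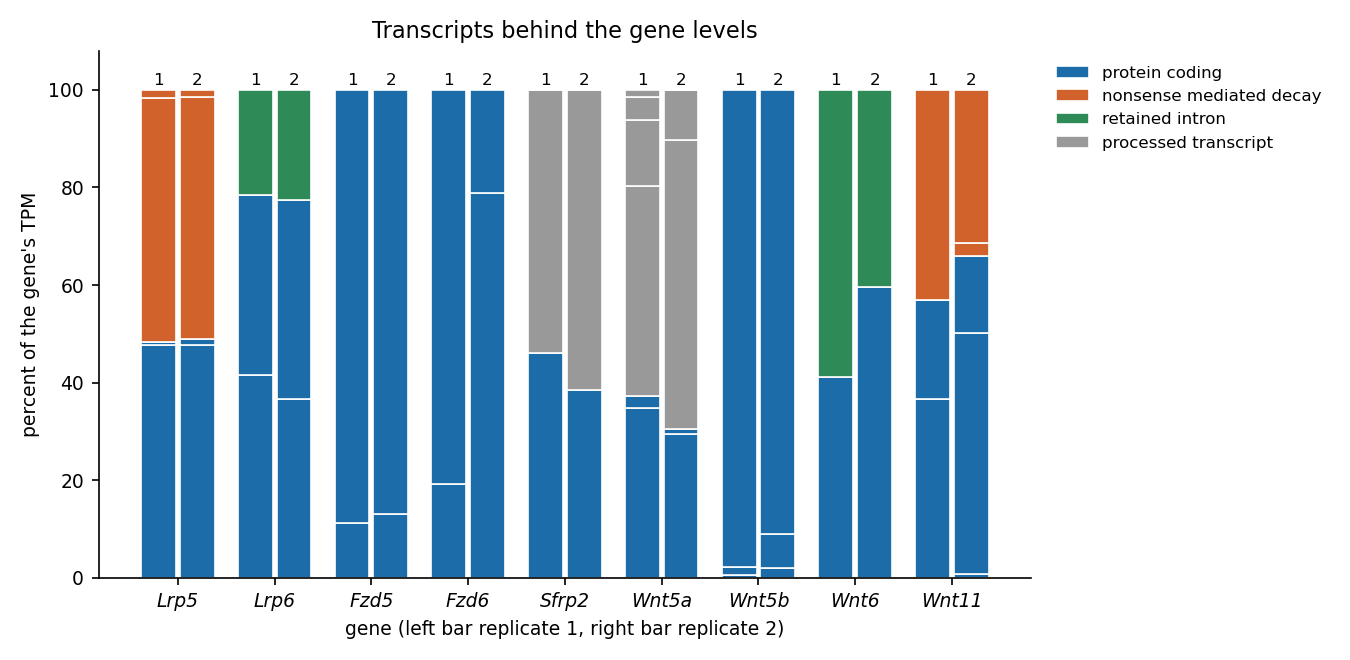
Share of each gene's TPM by transcript for 9 members, left bar replicate 1 and right bar replicate 2, coloured by annotated transcript class, with white lines between transcripts. Non-coding classes hold more than 49% of Lrp5, Sfrp2 and Wnt5a in both libraries. By contrast, Fzd5, Fzd6 and Wnt5b are protein-coding throughout, and the inner boundary of Fzd6 moves from 19.2% to 78.9%.

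Some Wnt genes lie in close pairs on mm10, within 100 kb of each other, and the level often differed within a pair. Wnt6 and Wnt10a are 6.193 kb apart on chromosome 1, and the first had 4.35 and 4.66 TPM where the second had 0.10 and 0.13. Wnt9a had 1.60 and 1.49 TPM, while Wnt3a, 16.175 kb away on chromosome 11, had 0 counts. Wnt10b and Wnt1, 11.706 kb apart on chromosome 15, both lay under 1 TPM, as did Wnt9b and Wnt3, 24.328 kb apart on chromosome 11. Wnt5b overlaps a gene on the opposite strand, Fbxl14, which had 95.6 and 78.1 TPM. Whether strand was used in counting is not stated in the sources used here, so Wnt5b reads may include some of Fbxl14.

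Promoter records were matched for 28 members, in 31 windows of 250 bases. The windows lie before the RefSeq start. Several overlap an annotated exon of the member itself, among them those of Fzd9, Fzd10 and Wnt4. The member windows held a median of 22 CpG (range 4 to 48), against 6 over all 32851 RefSeq windows of the same length, and 85.2% of those held fewer than 22. Their median GC content was 68.0%, against 52.4% over all windows. Windows of members detected in both libraries had a median of 23.5 CpG and those of the other members 22, so the medians lay close together. The TCF/LEF motif CTTTGAT, searched on both strands, was in 2 of 31 member windows (6.45%) and in 3.21% of all windows. Both matches are in windows shown above: the proximal one of Wnt5b, on the plus strand of the printed sequence, and the distal one of Wnt11, on its minus strand.

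Most genes of the surrounding pathway were detected, where 57.9% of all protein-coding genes were. Over all genes tested 6.35% were called, so a single call or none in lists of this size is close to that share. Of 16 genes for Wnt secretion and extracellular control outside the family rule, 11 were detected, 14 were tested and 1 was called. Igfbp4, a secreted antagonist, had 210 and 202 TPM, Kremen1, a Dkk receptor, 21.2 and 19.9, and Porcn, the enzyme that adds the lipid to Wnt proteins, 19.6 and 15.2. Draxin was the gene called (95 and 25 counts, log2 ratio 1.87, adjusted p = 1.05e-09, exact binomial test; edgeR adjusted p = 0.215). The list's median log2 ratio was 0.05.

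Of the 5 genes for R-spondin receptors and Frizzled turnover, 4 were detected, all were tested and 0 were called. Lgr4, an R-spondin receptor, had 85.3 TPM in replicate 1 and 39.2 in replicate 2, yet its counts, 8326 and 6683, differed far less (log2 ratio 0.29). The TPM gap lay in Lgr4-204, a processed transcript of 750 nt, which took 50.1% and 2.24% of the gene's TPM, whereas the coding Lgr4-201 had 41.0 and 37.0 TPM. Rnf43 and Znrf3, ligases that remove Frizzled from the cell surface, had 21.6 and 22.3 TPM and 6.26 and 6.57 TPM. The stem cell marker Lgr5 had 5.84 and 6.49 TPM. The list's median log2 ratio was -0.13.

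Of 19 genes for other Wnt receptors and planar polarity, 19 were detected and 0 were called (median log2 ratio -0.04), and Adgra2 (38.0 and 35.7 TPM), Ryk (38.0 and 32.8) and Prickle3 (26.1 and 31.4) were highest. The 20 genes of the beta-catenin destruction complex and signal transfer were all detected and gave 0 calls (median log2 ratio -0.03). Dvl1, which relays the signal from Frizzled, had 156 and 143 TPM. Beta-catenin itself (Ctnnb1) had 109 and 147 TPM, and the kinase Gsk3a had 133 and 107. Among 12 nuclear effectors 10 were detected and 0 were called (median log2 ratio -0.01), led by Pygo2 (137 and 118 TPM), Tle3 (64.5 and 66.1) and Tcf7l2 (60.5 and 60.3). Of 15 crypt epithelial Wnt target genes 13 were detected and 1 was called, Sp5 (13 and 46 counts, log2 ratio -1.81, adjusted p = 4.12e-05, exact binomial test; edgeR adjusted p = 0.540). Ephb2 (107 and 120 TPM), Ccnd1 (56.1 and 60.4) and Sox9 (53.6 and 59.3) were the highest targets, and the list's median log2 ratio was -0.18.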

How the data were processed

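Expected counts per gene and transcript, as deposited by the authors, are read counts estimated in columns of the kind RSEM writes, per the file headers, and are not normalized. TPM and its posterior mean were also deposited by the authors, scaled to a fixed total per library. The percent of a gene's abundance on each transcript by posterior mean was used as deposited, per the file headers. The tables rest on mm10 with the GENCODE M4 annotation, per the deposited file notes. Neither the aligner, the quantifier version, strand use in counting nor the credibility level is stated in the sources used here. Libraries were stranded, paired-end and rRNA-depleted, per the labels.

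Each gene table held 69691 rows, of which 43346 were Ensembl genes and 42462 matched GENCODE vM21 by identifier for symbols, biotypes and coordinates. Expected counts were rounded (43 of 44 members were whole within 0.005 in both libraries) and compared by a two-sided exact binomial test against TMM-scaled library sizes (edgeR 4.0.16, R 4.3.3, scipy 1.17.1), with Benjamini-Hochberg adjustment over the 17713 genes whose counts summed to 10 or more. For genes with more than 2000 counts in all, the p-value was double the smaller exact tail. A call needed an adjusted p of at most 0.05 and a 2-fold ratio. Log2 ratios add 0.5 to each count, and 95% intervals and limits for 0 counts cover counting error only. With 1 group there are no residual degrees of freedom for edgeR's quasi-likelihood test, so its exact test at an intercept-only common dispersion (coefficient of variation 0.271) was an alternative, as were DESeq2 1.42.0 size factors, other totals, count minimums, detection levels and posterior means. The test was checked on simulated data with counting error alone, so the check does not cover the spread between samples.

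Members were taken by the symbol rule, and all 44 are accounted for: those with a mean TPM of at least 1 by their values, the rest by range and count. Of each other pathway list, the 3 highest genes and any called gene are named. Others named for background (Frzb, Ndp, Lgr5 and overlapping genes) were chosen after their values were seen. The members and lists were chosen with earlier results of these data known. Promoter windows are RefSeq sequences on GRCm38.p6, the 250 bases before each start, with the 50 after it left out. Junction and contig files on mm9 were not used.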

Additional observations from a re-analysis of the deposited data

How the results depend on the processing

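The number of members called stayed at 0 with DESeq2 size factors, unscaled totals and totals without acinar markers. It also stayed at 0 with no minimum count, a minimum of 100 counts and edgeR's exact test. The edgeR result adds little, since its spread came from the same libraries that it compared. Calls over all genes, 1125 in the main setting, ran from 1239 with no minimum count to 415 (2.94%) at a minimum of 100. With edgeR they numbered 239. Of 125 recomputed log2 ratios (25 detected members, 5 settings), 122 kept their sign and call. The count minimums do not enter the ratio, so under them no sign could change. The widest main ratio of these members was -0.81 (Fzd9), so a changed call was unlikely under the other scalings. The signs that turned were near 0: Rspo3 at -0.0178 and Lrp6 at -0.00558 with totals without acinar markers, and Sfrp1 at 0.000589 with DESeq2 size factors. Detected members numbered 28 at 0.5 TPM, 22 at 2 TPM, 26 by posterior mean, and 25 to 26 with 1 replicate left out. The Wnt sum of 51.9 TPM moved by more than its SD to 55.0 by posterior mean, 52.9 after rescaling without acinar markers, 49.5 over detected members and 38.5 over protein-coding transcripts. That last setting, chosen after seeing the data, also gave 58.1 TPM for Lrp5 with Lrp6 and 38.6 for Sfrp, since it drops transcripts by construction. With 1 replicate left out, the sums ranged from 51.4 to 52.4 TPM for Wnt, 249 to 271 for Frizzled, 85.3 to 104 for the co-receptors, 5.61 to 6.24 for R-spondins, 46.7 to 51.1 for Sfrp, 21.8 to 24.4 for Dkk and 1.64 to 1.84 for Wif1. Leading transcripts shared by both libraries numbered 16 by count and 13 by posterior mean, against 12. No paired analysis was possible because the series has 1 group. Depth limits members with fewer than about 100 counts, whose levels below 1 TPM carry wide counting intervals.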
